A study of Mus musculus with 18 samples.

Results

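The gut epithelium secretes proteins that act on bacteria, and 10 genes of this kind were examined in RNA-Seq libraries of mouse colon: *Reg3a*, *Reg3b*, *Reg3g*, *Reg3d*, *Reg4*, *Lypd8*, *Mptx1*, *Ang4*, *Itln1* and *Lyz1*. They are 10 of the 47729 genes in the count table. The genes were named as a group because of what their products do and were chosen from values of these same libraries, so their levels and differences in all 6 groups are a description. Where a gene of the 10 is said to have passed or missed a threshold of the fit across all genes, that too describes these libraries and is no independent test of the gene.

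WT mice and mice with a knockout of *Cldn2* (*Cldn2*KO, called KO below), the gene of the tight junction protein claudin-2, were compared. In each genotype 3 libraries came from untreated controls, 3 from mice in recovery after colitis (labelled DSS-Recovery, where DSS is dextran sulfate sodium, a chemical toxic to colonic epithelial cells), and 3 from mice with colitis-associated cancer after azoxymethane and DSS (labelled AOM-DSS), which makes 18 libraries in 6 groups. The treatment protocol given for the series was 1 dose of azoxymethane at 10 mg/kg with 3 cycles of 2.5% DSS, and no dose or time of recovery was stated in the labels. According to the methods all mice were on a C57BL/6 background and WT littermates served as controls. The labels give the tissue of every library as colon, and the study names distal colon as the source of RNA for the recovery mice. The labels name no promoter or cell type that limits the knockout, and they give no ages. Nothing in the labels ties a library to a single animal, so the spread between libraries may be partly technical.

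The 4 REG3 proteins and REG4 are small secreted C-type lectins, proteins that bind sugars. REG3G and REG3B bind and damage bacteria, and their genes are known targets of IL-22 acting through STAT3 in intestinal epithelium. LYPD8 is a highly glycosylated protein of the colonic surface that binds flagella and keeps motile bacteria off the epithelium, ITLN1 (intelectin) binds microbial glycans, MPTX1 is a pentraxin, ANG4 is a ribonuclease with antimicrobial activity, and LYZ1 is the lysozyme of Paneth cells. Paneth cells reside in small intestinal crypts and are rare or absent in healthy mouse colon.

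The *Reg3* genes lie together on chromosome 6 of GRCm38, *Reg3b* at 78370657 to 78373466 on the plus strand, *Reg3d* at 78375874 to 78378865 on the minus strand, *Reg3a* at 78380709 to 78383827 on the plus strand and *Reg3g* at 78466269 to 78468872 on the minus strand. *Reg4* is on chromosome 3 (98222156 to 98236748), *Lypd8* on chromosome 11 (58379043 to 58390728), *Mptx1* and *Itln1* on chromosome 1 (174330518 to 174332873 and 171518122 to 171535294), *Ang4* on chromosome 14 (51763878 to 51773590) and *Lyz1* on chromosome 10 (117287796 to 117292868). All 10 are protein coding and no exon of any of them overlaps another gene in the count table. Promoter sequence is shown for the *Reg3* genes because their levels moved together across the libraries, and for *Mptx1* because its level moved against theirs. Each line gives the 150 bases before the start site in RefSeq (GRCm38.p6), 5′ to 3′ in the direction of transcription, with capitals for TTCNNNGAA (the STAT consensus, N any base) and TATAAA on either strand.
Reg3b, chr6:78370735-78370884, plus strand: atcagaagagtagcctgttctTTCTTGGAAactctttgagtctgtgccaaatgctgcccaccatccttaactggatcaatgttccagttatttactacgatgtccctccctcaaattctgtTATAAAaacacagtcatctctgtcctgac
Reg3g, chr6:78468875-78469024, minus strand: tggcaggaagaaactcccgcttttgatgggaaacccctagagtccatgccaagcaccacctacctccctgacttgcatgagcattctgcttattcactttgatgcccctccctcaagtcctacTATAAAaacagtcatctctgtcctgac
Reg3a, chr6:78380559-78380708, plus strand: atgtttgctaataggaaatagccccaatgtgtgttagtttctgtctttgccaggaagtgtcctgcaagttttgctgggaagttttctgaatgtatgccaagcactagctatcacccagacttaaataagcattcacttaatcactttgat
Reg3d, chr6:78378866-78379015, minus strand: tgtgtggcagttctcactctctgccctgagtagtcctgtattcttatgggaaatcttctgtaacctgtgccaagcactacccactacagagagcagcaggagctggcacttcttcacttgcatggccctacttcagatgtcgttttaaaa
Mptx1, chr1:174330368-174330517, plus strand: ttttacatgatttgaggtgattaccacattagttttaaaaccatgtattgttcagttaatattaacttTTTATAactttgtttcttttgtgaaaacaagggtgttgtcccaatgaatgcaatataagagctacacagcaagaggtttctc
*Reg3b* held the STAT letters at position -129 from the start site, and none of the other 9 genes held them in this window. TATAAA stood at position -29 in *Reg3b* and -27 in *Reg3g*. In *Mptx1* it stood at -82 on the opposite strand, read as TTTATA in the line above. Over 32851 promoter windows of the same length, 4.09% held TTCNNNGAA and 7.57% held TATAAA, and the match is a description of letters, not of a bound site. The *Reg3b* and *Reg3g* windows were identical at 68.4% of aligned positions, whereas the other pairs of *Reg3* genes ranged from 37.5% to 48.5%. In the GENCODE M21 transcripts the coding sequences of *Reg3b* and *Reg3g* were 76.0% identical, and the longest stretch shared by their transcripts was 35 bases. Reads of *Lyz1* and of its paralog *Lyz2* are harder to tell apart, since their coding sequences were 95.1% identical with a shared stretch of 118 bases. *Mptx1* and *Mptx2* were 92.0% identical with a shared stretch of 112 bases. How reads with several alignments were counted is not given in the sources used here, and *Lyz1* and *Mptx1* are therefore uncertain to that extent.

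Depth ranged from 17.6 to 27.4 M counted reads per library (median 19.6). Levels are counts per M reads (CPM) after TMM scaling. The libraries followed their genotype labels for *Cldn2*. They differed in 2 further ways that touch every comparison below. *Hoxb13*, a marker of the distal colon, stood at 0.502 CPM or less in all 6 recovery libraries and in WT control replicate 2, and between 198 and 570.1 CPM in the 11 others, so the 6 recovery libraries went against the source stated for them, and 1 of the 6 controls differed from the 5 others. *Xist*, which marks female cells, was above 10 CPM in 6 libraries, which were replicates 2 and 3 of WT recovery, KO recovery and KO AOM-DSS. In KO mice recovery and loss of *Hoxb13* cannot be told apart, and in WT mice their separation rests on WT control replicate 2 alone. *Epcam*, an epithelial marker, stood at 1815 to 2434 CPM in all 18 libraries, but the whole list of 9 general epithelial markers was not level. Its sum was 14218 to 18401 CPM in controls, 9553 to 14561 CPM in recovery and 10005 to 15781 CPM in AOM-DSS. Of the 9, *Vil1*, *Krt19*, *Cldn7* and *Tjp3* were lower in both WT recovery and WT AOM-DSS, where 12.2% and 6.58% of all genes were lower (only *Vil1* in WT AOM-DSS without its replicate 3), and *Cdh1* was lower in WT recovery. None was called in KO recovery or KO AOM-DSS, where 10.0% and 0.118% of all genes were lower. The part of this in the levels of the 10 genes was not tested. All 10 genes passed the filter on low counts. *Reg3a* and *Reg3d* had at most 13 reads in every library outside the recovery groups, so they passed through those groups.

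**Figure D1:**
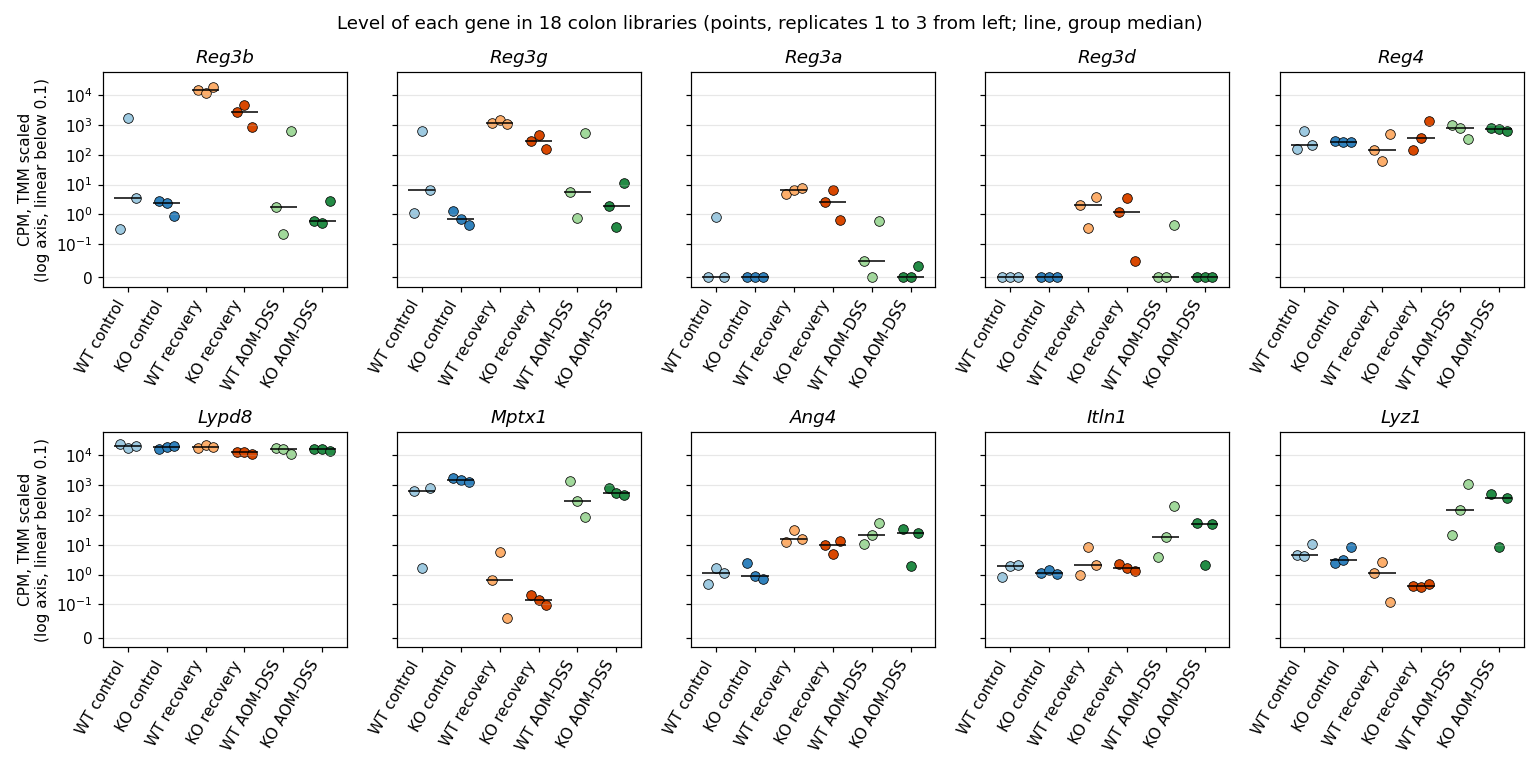
CPM of each of the 10 genes in the 18 libraries, by group (points are libraries, replicates 1 to 3 from left to right, lines are group medians, log axis that is linear below 0.1). *Lypd8* stayed between 11323 and 23757 CPM, whereas *Reg3b* ran from 0.219 to 18606 CPM and *Mptx1* from 0.0591 to 1751 CPM.

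*Lypd8* was the most abundant of the 10 genes in the median over libraries. Per kilobase of exon it ranked 2 or 3 among the 16937 genes tested in each of the 6 groups, and it took 1.19% to 2.04% of all reads. It stood at 23757, 16941 and 21166 CPM in WT controls and at 16628, 18885 and 20778 CPM in KO controls, and these groups overlapped. In recovery it stood at 17318, 22765 and 18597 CPM in WT mice and at 13275, 13422 and 11323 CPM in KO mice. Every KO recovery library lay below every WT recovery library, as for 11.7% of all genes tested, with a log2 fold change of -0.63 (SE 0.21, n = 3 per group), and edgeR did not call this difference. DESeq2 did call it. The KO recovery libraries also lay below all KO controls, as for 20.5% of all genes, with a log2 fold change of -0.57 (SE 0.21). That difference too was called by DESeq2 and not by edgeR, and in WT mice recovery and controls overlapped. *Lypd8* in AOM-DSS was 17715, 16114 and 11499 CPM in WT and 16530, 16658 and 14113 CPM in KO mice, with overlapping groups and a log2 fold change of 0.06 (SE 0.21). Over the 18 libraries the highest level of *Lypd8* was 2.10 times the lowest, the smallest range of the 10 genes. In bulk tissue fewer cells of a type and less RNA per cell cannot be told apart, here or for any gene below.

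*Reg3b*, the lectin with the widest range, was among the most abundant transcripts of the recovery libraries. The WT recovery libraries held 14506, 11954 and 18606 CPM of it, and the KO recovery libraries 2771, 4660 and 821 CPM. In WT controls it stood at 0.315, 1721 and 3.40 CPM and in KO controls at 2.76, 2.39 and 0.861 CPM. Both recovery groups lay above their own controls in every library, as did 16.8% of all genes in WT and 19.9% in KO mice. Among the controls, WT control replicate 2, which lacked *Hoxb13*, lay within the range of KO recovery, and the 5 others had at most 3.40 CPM. In AOM-DSS *Reg3b* was 1.74, 0.219 and 605 CPM in WT and 0.618, 0.519 and 2.89 CPM in KO mice. Only WT AOM-DSS replicate 3 stood apart there, at a *Hoxb13* level of 198 CPM, the lowest of the 11 libraries with that marker. Per kilobase *Reg3b* ranked 4 of 16937 genes in WT recovery, where it took 1.32% of reads, and 18 in KO recovery. In KO controls it ranked 10532.

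*Reg3g* was high in the same libraries as *Reg3b*, at lower CPM in each of these, whereas in several libraries with few reads of both it was the higher one. The WT recovery libraries held 1165, 1446 and 1082 CPM, and the KO recovery libraries 285, 445 and 155 CPM. The control libraries had 1.14, 648 and 6.58 CPM in WT and 1.33, 0.721 and 0.431 CPM in KO mice, and again WT control replicate 2 was the exception. The AOM-DSS libraries had 5.57, 0.744 and 553 CPM in WT and 1.95, 0.389 and 11.1 CPM in KO mice, and again WT AOM-DSS replicate 3 stood apart. Across the 18 libraries the Pearson r of log2 CPM between *Reg3b* and *Reg3g* was 0.97, the closest match for either gene among 13243 candidates. These libraries share the *Hoxb13* split, so the value describes the set and has no p. The ratio of *Reg3b* to *Reg3g* was not constant. Per kilobase *Reg3b* exceeded *Reg3g* by 9.84 to 31.8 times in the 6 recovery libraries and by 4.92 times in WT control replicate 2. In WT AOM-DSS replicate 3, the other library with high *Reg3* levels, the ratio was 2.02. The remaining 10 libraries ran from 0.482 to 6.12, some on few reads. The annotated length of *Reg3g* includes a retained intron, which lowers its level per kilobase and raises each ratio alike.

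*Reg3a* and *Reg3d*, the less abundant genes of the cluster, were read mainly in the recovery libraries. *Reg3a* reached 4.84, 6.38 and 7.75 CPM in the WT recovery libraries, against 2.52, 6.63 and 0.640 CPM in the KO recovery libraries. It had no read in 5 of the 6 controls and 12 reads (0.786 CPM) in WT control replicate 2. WT AOM-DSS replicate 3 held 13 reads (0.615 CPM), and WT AOM-DSS replicate 1 and KO AOM-DSS replicate 3 held 1 read each. *Reg3d* reached 2.08, 0.359 and 3.79 CPM in the WT recovery libraries, against 1.23, 3.67 and 0.0492 CPM in the KO recovery libraries, the last from 1 read. It had no read in any control, WT control replicate 2 included, and 9 reads in WT AOM-DSS replicate 3. In KO recovery, replicate 2 was highest and replicate 3 lowest for each of the 4 genes, and the WT recovery libraries had no such common order. The gene outside the group most like *Reg3a* was *Reg1*, a further secreted REG lectin (r = 0.98 over 18 libraries), which was read only in the 6 recovery libraries, in WT control replicate 2 and in WT AOM-DSS replicate 3. Because REG proteins are also made by the exocrine pancreas, a list of 16 pancreas markers was examined. *Prss1* and *Ins2* had no read in any library, *Cpa1* had 1 read in all, and 3 of the 16 were tested. Of these *Clps*, which encodes colipase, was called higher in WT recovery (log2 fold change 3.22, SE 0.73) and *Cela1*, an elastase gene, lower (-1.57, SE 0.49). In that comparison 10.0% of all genes were higher and 12.2% lower. *Cela1* was also called lower in KO recovery, where 10.0% of all genes were lower. *Clps* stood at 9.58 to 64.5 CPM in WT recovery and 0.524 to 4.60 CPM in WT controls, but at 2.37 to 7.44 CPM in KO recovery and 14.7 to 21.1 CPM in KO controls. WT control replicate 2, high in *Reg3b*, had the lowest *Clps* of the 18 libraries. The summed level of the list ran from 56.0 to 648 CPM, most of it *Cela1*, and was 59.7 to 159.8 CPM in the recovery libraries.

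*Mptx1*, the pentraxin, had the opposite pattern. It stood at 1751, 1542 and 1242 CPM in KO controls and at 630, 1.70 and 774 CPM in WT controls. In recovery it fell to 0.651, 5.60 and 0.0591 CPM in WT and to 0.214, 0.139 and 0.0984 CPM in KO mice, which are 1 to 78 reads per library. WT control replicate 2 lay within the range of WT recovery, as it did not for *Reg3b*. In AOM-DSS *Mptx1* stood at 1381, 301 and 82.9 CPM in WT and at 832, 561 and 478 CPM in KO mice, and the genotypes overlapped in range. All 3 KO AOM-DSS libraries lay below all 3 KO controls, with a log2 fold change of -1.28 (SE 1.28) that was not called. In that comparison the groups were apart, in one direction or the other, for 29.1% of all genes. In WT mice AOM-DSS and controls overlapped. Over all treatments *Mptx1* was 0.0591 to 5.60 CPM in the 7 libraries without *Hoxb13* and 82.9 to 1751 CPM in the 11 with it. The share of all genes that split in this way was not counted. Recovery lay below the controls of its own genotype in every library for 20.9% of all genes in WT and 20.5% in KO mice. The genes most like *Mptx1* over the 18 libraries were *Hoxa11os* (r = 0.98), *Hoxa13* (r = 0.98) and *Gjb5* (r = 0.98), of which the first is an antisense RNA of the *Hoxa* cluster and the second encodes a posterior homeobox factor. Its paralog *Mptx2* did not exceed 0.473 CPM in any library.

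**Figure D2:**
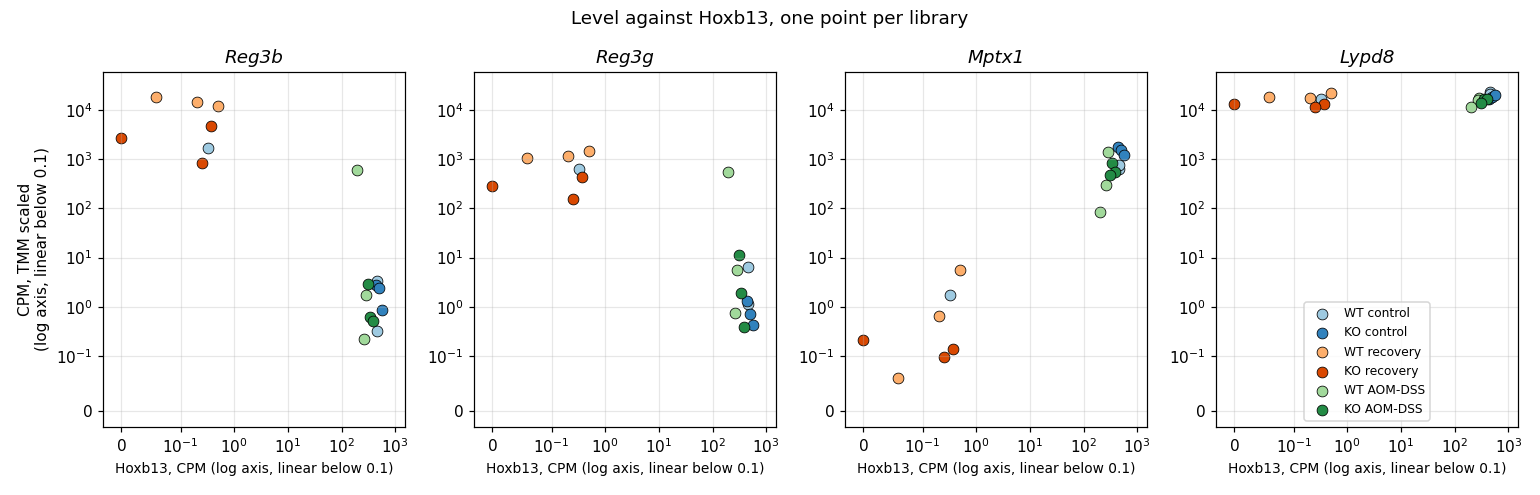
CPM of *Reg3b*, *Reg3g*, *Mptx1* and *Lypd8* against CPM of *Hoxb13*, 1 point per library and colours for groups (log axes that are linear below 0.1). The 7 libraries at or below 0.502 CPM of *Hoxb13* had 821 to 18606 CPM of *Reg3b* and at most 5.60 CPM of *Mptx1*. WT AOM-DSS replicate 3, at 198 CPM of *Hoxb13*, had 605 CPM of *Reg3b* and 82.9 CPM of *Mptx1*, while *Lypd8* showed no such split.

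*Reg4*, a lectin that marks secretory cells of the deep crypt in mouse colon, was abundant in all groups. Its levels were 149.7, 638 and 210.0 CPM in WT controls and 290.1, 264 and 269.8 CPM in KO controls. In recovery they were 148, 59.5 and 492 CPM in WT and 146, 369.9 and 1395 CPM in KO mice. In AOM-DSS they were 1028, 789 and 338 CPM in WT and 815, 701 and 614 CPM in KO mice. All 3 KO AOM-DSS libraries lay above all 3 KO controls, where the groups were apart, in one direction or the other, for 29.1% of all genes, with a log2 fold change of 1.37 (SE 0.80), and in WT mice the groups overlapped. The gene most like *Reg4* was *Spry1* (r = 0.79 over 18 libraries), and no gene of the 10 was among its 3 closest.

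*Lyz1*, *Itln1* and *Ang4* had their highest levels in AOM-DSS. *Lyz1* stood at 21.1, 148 and 1088 CPM in WT AOM-DSS and at 488, 8.60 and 362 CPM in KO AOM-DSS. It stood at 4.64, 4.12 and 10.8 CPM in WT controls and at 2.51, 3.11 and 8.34 CPM in KO controls. Every AOM-DSS library lay above every control of its genotype, where the groups were apart, in one direction or the other, for 32.2% of all genes in WT and 29.1% in KO mice, although KO AOM-DSS replicate 2 barely exceeded KO control replicate 3. In recovery *Lyz1* was 1.14, 2.58 and 0.118 CPM in WT and 0.428, 0.371 and 0.492 CPM in KO mice, below the controls of each genotype, as for 20.9% of all genes in WT and 20.5% in KO mice. *Lyz2*, the paralog expressed by macrophages, ran from 61.9 to 181 CPM in AOM-DSS and from 56.3 to 270.4 CPM in controls. WT AOM-DSS replicate 3, highest for *Lyz1*, was also highest of the 6 for *Lyz2*, but KO AOM-DSS replicates 1 and 3 had the lowest *Lyz2* of WT and KO AOM-DSS libraries and high *Lyz1*.

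*Itln1* stood at 4.02, 17.9 and 194 CPM in WT AOM-DSS and at 54.9, 2.14 and 48.8 CPM in KO AOM-DSS. It stood at 0.826 to 2.14 CPM in the 6 controls and at 0.936 to 8.32 CPM in the 6 recovery libraries. The same 4 AOM-DSS libraries were therefore highest for *Itln1* as for *Lyz1*, and WT replicate 1 and KO replicate 2 were lowest. *Ang4* stood at 10.8, 22.1 and 55.5 CPM in WT AOM-DSS and at 32.7, 1.88 and 24.4 CPM in KO AOM-DSS. Unlike the other pair, it was also high in recovery, at 12.3 to 31.6 CPM in WT and 4.87 to 13.4 CPM in KO mice, above the 0.472 to 2.51 CPM of the 6 controls. Recovery lay above the controls of its own genotype in every library for 16.8% of all genes in WT and 19.9% in KO mice. WT control replicate 2, at 1.64 CPM of *Ang4*, lay with the other controls, so *Ang4* did not follow the *Hoxb13* split.

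Other genes of Paneth cells were read in the same AOM-DSS libraries. *Defa24*, a Paneth cell alpha-defensin, was among the 3 genes most like *Itln1* (r = 0.95) and stood at 0.242, 3.20 and 121 CPM in WT AOM-DSS and at 29.1, 0.130 and 34.3 CPM in KO AOM-DSS. It did not exceed 0.122 CPM in any of the 12 other libraries. *Mmp7*, the protease that activates Paneth cell defensins, was the gene most like *Ang4* (r = 0.90) and stood at 0.920, 27.6 and 372 CPM in WT and at 79.7, 0.844 and 82.8 CPM in KO AOM-DSS. Like *Ang4* it was also read in recovery, at 6.0 to 36.6 CPM in the 6 recovery libraries against 0.0538 to 2.42 CPM in the 6 controls, although it was not called in recovery in either genotype. *Lyz1* and *Defa24* were low in those recovery libraries. Of a list of 18 markers of Paneth and deep crypt secretory cells, 13 were tested. In WT AOM-DSS against control 3 rose (*Mmp7*, *Pnliprp2* and *Cd24a*) and none fell, where 3.81% of all genes were higher, with a list median log2 fold change of 2.21 against 0.01 over all genes, and in KO mice none was called (median 2.95), where 0.0768% of all genes were higher. Without WT AOM-DSS replicate 3 none of the list was called in WT mice either. The list summed to 874 to 1889 CPM in WT AOM-DSS and 424 to 715 CPM in WT controls, and to 798 to 1020 CPM in KO AOM-DSS and 692 to 737 CPM in KO controls. Most of it was *Cd24a* and *Xbp1*, which are not particular to Paneth cells. In WT recovery, where *Lyz1* was low, the sum was 1285 to 2156 CPM, and in KO recovery it was 730 to 992 CPM. *Defa* genes have near-identical copies and their reads are uncertain. Whether these cells account for *Lyz1*, *Itln1* or *Ang4* was not tested.

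**Figure D3:**
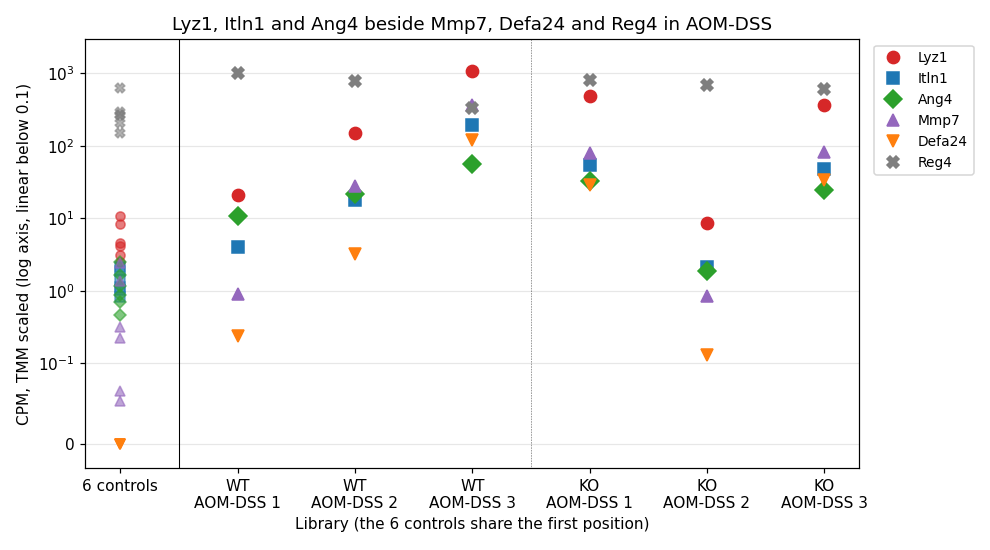
CPM of *Lyz1*, *Itln1*, *Ang4*, *Mmp7*, *Defa24* and *Reg4* in each AOM-DSS library, with the 6 controls at the first position (log axis that is linear below 0.1). For the first 5 genes WT replicate 1 and KO replicate 2 are the 2 lowest AOM-DSS libraries, though *Ang4* in WT replicate 1, at 10.8 CPM, is above all controls, whereas *Reg4* stays between 338 and 1028 CPM.

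The first comparison asked which of these genes differ after recovery from colitis. In WT mice 4 of the 10 lay past the threshold of edgeR (Benjamini-Hochberg adjusted p under 0.05 over all genes), *Reg3a*, *Reg3d* and *Ang4* as higher and *Mptx1* as lower. Over all 16937 genes, 10.0% were called higher and 12.2% lower in that comparison. The 10 were chosen from these values, and *Reg3a* and *Reg3d* were tested only because they were high in recovery, so nothing is read from the count. The rise of *Ang4* was 4.21 on the log2 scale (SE 0.96, n = 3 per group) and that of *Reg3a* 4.75 (SE 1.30), and *Reg3d* was at least 42.5-fold higher, a bound against 3 reads over the control group that covers counting error only. *Reg3a* kept its call in 20 of 27 alternatives and lost it, among others, with DESeq2 and without WT recovery replicate 3 or WT control replicate 1 or 3, while *Reg3d* kept its call in 16 of 26 and lost it, among others, without WT recovery replicate 1 or 3 or any single WT control. *Mptx1* fell by 7.88 on the log2 scale (SE 1.74). The log2 fold changes of *Reg3b* (4.71, SE 2.39) and *Reg3g* (2.50, SE 1.91) did not pass, with WT control replicate 2 among the controls. Without that library they were 13.02 (SE 3.13) and 8.33 (SE 2.47), and both were called, while *Reg3d* no longer was.

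In KO mice 5 of the 10 lay past that threshold, with *Reg3a*, *Reg3b*, *Reg3g* and *Ang4* higher and *Mptx1* lower, where 9.43% of all genes were higher and 10.0% lower. Nothing is read from this count either, for the same reasons. The rise of *Reg3b* was 10.42 on the log2 scale (SE 3.09) and that of *Reg3g* 8.45 (SE 2.60), with calls kept in 20 and 19 of 27 alternatives. Both calls were lost without any single KO control and without KO recovery replicate 2, and that of *Reg3g* also without KO recovery replicate 1. Both were also lost with no filter and with *Xist* above 10 CPM as a covariate. *Reg3a* was at least 63.6-fold higher, since KO controls held no read of it. *Ang4* rose by 2.77 (SE 0.90), but kept its call in only 13 of 27 alternatives and lost it without any single KO control or KO recovery library. *Mptx1* fell by 13.25 on the log2 scale (SE 2.22). *Reg3d*, also without a read in KO controls, was at least 32.3-fold higher by the same bound and was not called. With *Hoxb13* above 10 CPM as a covariate, none of the 10 was called in either genotype. In that fit the log2 fold change of *Ang4* was 3.57 in WT (SE 1.47) and 1.72 in KO mice (SE 1.73), that of *Reg3b* was 3.13 (SE 2.64) and 0.50 (SE 3.02), and that of *Mptx1* was 0.19 (SE 1.54) and -4.57 (SE 2.14). The *Hoxb13* adjustment can separate recovery from that marker only through WT control replicate 2.

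The same comparison for AOM-DSS called 3 of the 10 in WT mice, *Ang4*, *Itln1* and *Lyz1*, all higher, where 3.81% of all genes were higher and 6.58% lower. The rise of *Lyz1* was 6.01 on the log2 scale (SE 1.45), that of *Itln1* 5.49 (SE 1.38) and that of *Ang4* 4.80 (SE 0.98). Without WT AOM-DSS replicate 3 none of the 3 was called, with log2 fold changes of 3.70, 2.77 and 3.96. In KO mice edgeR called none of the 10, where 0.0768% of all genes were higher and 0.118% lower. At an unadjusted p under 0.05 there were 3 of them, against 15.2% of all genes, and DESeq2 called 3. The log2 fold changes were 5.94 for *Lyz1* (SE 1.45), 4.87 for *Itln1* (SE 1.36) and 3.83 for *Ang4* (SE 0.93). Without KO AOM-DSS replicate 2, *Lyz1* (6.54, SE 1.26) and *Ang4* (4.40, SE 0.74) were called in KO mice.

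**Figure D4:**
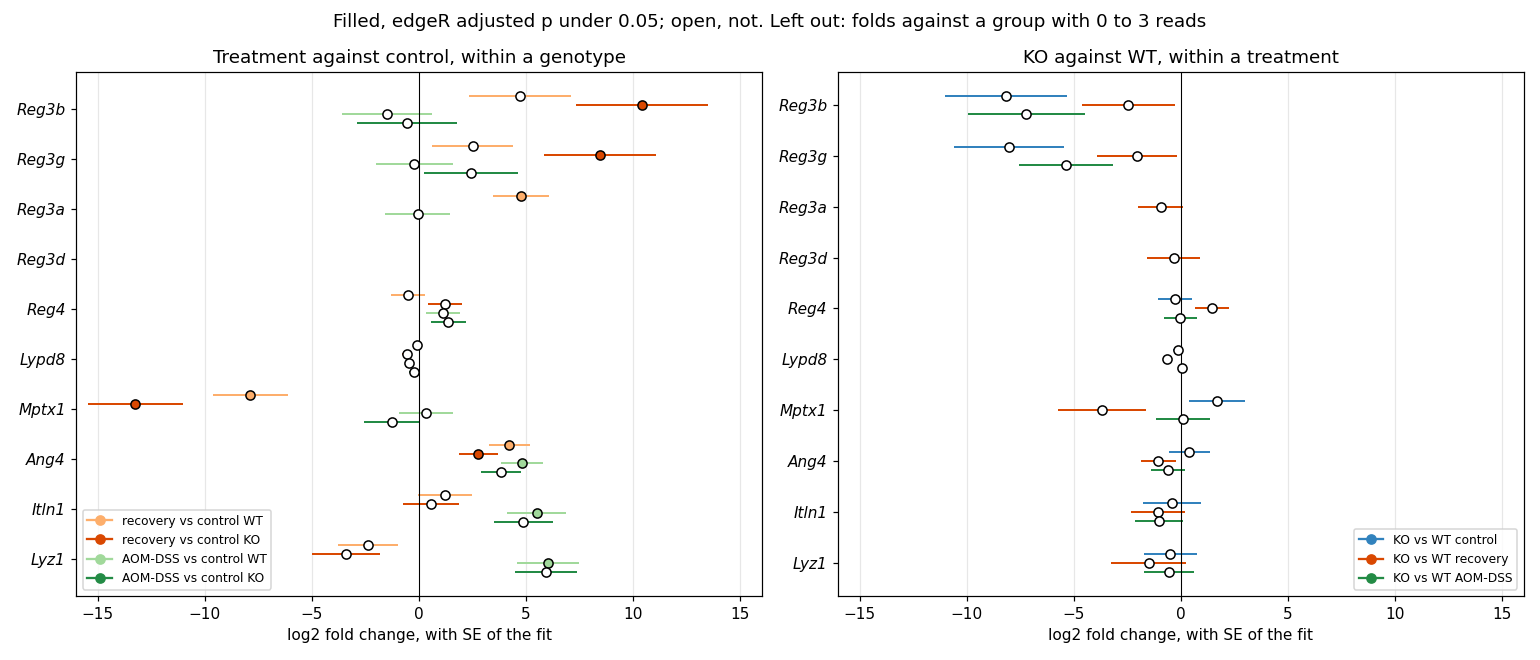
Log2 fold change of each gene with the SE of the fit (bars), for each treatment against its control within a genotype (left) and for KO against WT within a treatment (right). Filled points passed an edgeR adjusted p of 0.05 and open points did not. Folds against a group with 0 to 3 reads are left out. *Ang4* and *Itln1* are positive in all 4 treatment comparisons, and no point on the right is filled.

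The remaining comparisons asked whether loss of claudin-2 changed these levels. In controls edgeR called none of the 10 between genotypes (2 at an unadjusted p under 0.05, against 13.1% of all genes), where 0.124% of all genes were higher and 1.05% lower in KO mice. DESeq2 called *Reg3b* and *Reg3g*, whose log2 fold changes were -8.16 (SE 2.84) and -8.02 (SE 2.56). Both values rest on WT control replicate 2, and without it they were 0.15 (SE 2.13) and -2.18 (SE 2.10). *Mptx1* was higher in every KO control (1242 to 1751 CPM) than in any WT control (1.70 to 774 CPM). Its log2 fold change was 1.69 (SE 1.29) and was not called. The share of all genes that were apart between the control genotypes was not counted. In recovery none was called by edgeR (1 at an unadjusted p under 0.05, *Lypd8*, which DESeq2 called, against 19.9% of all genes), where 0.549% of all genes were higher and 0.425% lower. *Reg3b* and *Reg3g*, like *Lypd8* and 11.7% of all genes, did not overlap between the genotypes in recovery, with KO below WT, at log2 fold changes of -2.45 (SE 2.16) and -2.06 (SE 1.87). The SE here comes from the spread within all 6 groups, not from the recovery groups alone. The log2 fold change of *Reg4* in recovery was 1.45 (SE 0.80), and its groups overlapped. In AOM-DSS none was called by edgeR (2 at an unadjusted p under 0.05, *Reg3b* and *Reg3g*, against 5.60% of all genes) or by DESeq2, where 0% of all genes were higher and 0.00590% lower. For *Reg3b* (-7.21, SE 2.74) and *Reg3g* (-5.37, SE 2.20) the AOM-DSS values rest on WT replicate 3. The difference between genotypes in the response to recovery was called for none of the 10 (1 at an unadjusted p under 0.05, *Mptx1*, against 18.5% of all genes), where 0.106% of genes were positive and 0.0236% negative. That in the response to AOM-DSS was called for none (0 at an unadjusted p under 0.05, against 8.44% of all genes), where 0.0118% were positive and 0% negative. DESeq2 called none in either.

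Other antimicrobial genes of the colon gave a context for the 10. Of 38 listed, 37 were in the table and 31 were tested. In controls 6 of the 31 were lower in KO than in WT mice (*Retnlb*, *Dmbt1*, *Lgals9*, *Nos2*, *Duox2* and *Duoxa2*) and none was higher, where 1.05% of all genes were lower. In these libraries the treatments therefore started from different levels of these genes in WT and KO mice. The WT controls include WT control replicate 2, which held 215 CPM of *Retnlb*, against 7.79 and 18.1 CPM in replicates 1 and 3. After recovery 3 rose and 12 fell in WT mice (list median log2 fold change -0.70 against -0.04 over all genes), where 10.0% of all genes were higher and 12.2% lower. In KO mice 11 rose and 7 fell (0.89 against 0.00), where 9.43% were higher and 10.0% lower. *Reg1*, *Ang* (angiogenin, a paralog of *Ang4*) and *Rnase4* were the 3 that rose in WT mice, and they rose in KO mice as well. *Ang* stood at 26.3 to 100.9 CPM in the 6 recovery libraries and at 10.2 to 29.6 CPM in the 6 controls, and of these WT control replicate 2 was the highest. *Retnlb*, the goblet cell protein RELMβ, rose in KO mice by 7.96 on the log2 scale (SE 1.5). It held 73.7 to 1544 CPM in the recovery libraries, 215 CPM in WT control replicate 2 and 0.323 to 30.2 CPM in the 11 libraries with *Hoxb13*. *Duox2*, an epithelial oxidase, fell in WT recovery by 2.12 on the log2 scale (SE 0.43) and rose in KO recovery by 1.53 (SE 0.42), and the difference between genotypes was called (3.65, SE 0.60). Its controls differed as well, at 385 ± 52.1 CPM in WT and 84.0 ± 19.7 CPM in KO mice (SD, n = 3 each), against 88.4 ± 26.4 CPM in WT and 242 ± 128 CPM in KO recovery. In AOM-DSS *Lcn2*, which sequesters bacterial siderophores, and *S100a8* and *S100a9*, the calprotectin genes of neutrophils, rose in WT mice, with log2 fold changes of 4.55 (SE 1.30), 6.65 (SE 1.68) and 8.61 (SE 1.68). One library carried most of this, since WT AOM-DSS replicate 3 held 126, 174 and 135 CPM of the 3 genes and the other two at most 16.8, 4.38 and 8.01 CPM. Without it the values were 2.13 (SE 1.06), 2.25 (SE 1.09) and 5.21 (SE 1.08), and only *S100a9* was called. No gene of the list was called in KO AOM-DSS, where 0.0768% of all genes were higher and 0.118% lower. Of 11 neutrophil markers 8 were tested and 5 rose in WT AOM-DSS, *S100a8* and *S100a9* included, where 3.81% of all genes were higher (1 of 8 without WT AOM-DSS replicate 3). In KO recovery *S100a8*, *S100a9* and *Mmp8* rose, where 9.43% of all genes were higher, beside the rise of the first 2 among the antimicrobial genes there. The summed level of the neutrophil list went the other way, at 18.8 to 89.3 CPM in KO recovery against 343 to 529 CPM in KO controls. That sum overlapped between WT AOM-DSS (220 to 612 CPM) and WT controls (2.03 to 525 CPM), of which WT control replicate 2 was the lowest. In KO AOM-DSS it was 215 to 289 CPM, below KO controls.

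Signals known to induce these genes were examined next. Of 27 listed genes of the IL-22, IL-17, type 2 and Toll-like receptor pathways, 22 were tested. *Il22* had 3 reads or fewer in each control and recovery group and 17 in WT AOM-DSS, where it reached 0.757 CPM in the highest library. In WT recovery none of the 22 rose and 6 fell, *Il22ra1*, the epithelial IL-22 receptor subunit, and *Stat3* among them, where 10.0% of all genes were higher and 12.2% lower. In KO recovery 7 rose and 1 fell, where 9.43% were higher and 10.0% lower, with *Socs3*, a STAT3 target, among those that rose. *Socs3* was called lower in KO than in WT controls, at 7.69 ± 0.453 CPM against 36.3 ± 7.73 CPM, and stood at 29.3 ± 7.39 CPM in KO and 25.9 ± 1.18 CPM in WT recovery (SD, n = 3 each). *Il22ra1* stood at 43.0 ± 8.86 CPM in WT controls and 16.8 ± 7.88 CPM in WT recovery (SD, n = 3 each), where *Reg3b* was highest, and at 48.1 ± 7.54 CPM in KO recovery.

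Markers of goblet cells, which secrete RETNLB and MUC2, moved with the recovery groups. Of 15 tested, 7 rose and 1 fell in WT recovery, where 10.0% of all genes were higher and 12.2% lower, and 5 rose and none fell in KO recovery, where 9.43% were higher and 10.0% lower, with *Muc2* higher in both. Their summed level was 20506 to 36972 CPM in WT recovery, 18776 to 20600 CPM in KO recovery and 9611 to 16716 CPM in the controls of both genotypes. Markers of the small intestine summed to 2475 to 4636 CPM in recovery, to 505 to 902 CPM in the 5 controls with *Hoxb13* and to 3338 CPM in WT control replicate 2. Smooth muscle markers were lower, at 862 to 2280 CPM in recovery against 4092 to 10718 CPM in controls, with 7 of 10 lower in WT and 10 of 10 in KO mice, against 12.2% and 10.0% of all genes. The summed level of 10 markers of absorptive colonocytes, most of it *Car1* in recovery, was 21230 to 53734 CPM in recovery, 7478 to 14056 CPM in the 5 controls with *Hoxb13* and 63716 CPM in WT control replicate 2. That of 11 T and NK cell markers was 27.9 to 194 CPM, 2.0 to 18.6 CPM and 158 CPM in the same libraries. As single genes the absorptive markers did not move one way. In WT recovery 1 of 10 was called higher and 3 lower (*Slc26a3*, *Aqp8* and *Krt20*), with a list median log2 fold change of 0.13, and 1 of 11 T and NK markers was lower. In KO recovery 4 absorptive markers were higher and 2 lower, and 6 T and NK markers were higher. In WT AOM-DSS 7 of 10 absorptive, 5 of 10 smooth muscle and 3 of 8 small intestine markers were lower, against 6.58% of all genes, and without WT AOM-DSS replicate 3 the counts were 1, 0 and 0. Smooth muscle markers summed to 627 to 3198 CPM in WT AOM-DSS and 4092 to 6106 CPM in WT controls. The part of these differences in tissue makeup in the levels of the 10 genes was not tested.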

How the data were processed

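The authors isolated total RNA from colon, sequenced it on an Illumina NovaSeq instrument and counted reads per gene with featureCounts from Subread. Their methods name TopHat2 as the aligner, whereas the submitters' processing notes name HISAT2 with build GRCm38. Their versions, the strandedness, the annotation release and how multiply aligned reads were treated are not given in the sources used here. The deposited values are raw counts, in 36 columns for 18 libraries on 2 lanes.

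Lanes of a library were summed (their chi-square over its degrees of freedom was 1.08 to 1.17). Between replicates this value was at least 11.0 over 18 pairs, so no library was a copy of another. The genotype and treatment labels gave the groups. Only the control titles carry replicate numbers, and the other libraries were numbered in accession order. Of 47729 identifiers 47224 matched a symbol, and the rest kept their identifiers.

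Genes were kept by filterByExpr with the 6 groups (16937 kept, 30792 dropped). edgeR 4.0.16 (R 4.3.3) fitted 1 model with a mean per group to all 18 libraries, with TMM scaling and robust quasi-likelihood estimation, and the common dispersion was 0.0993. Calls in 9 contrasts used p-values adjusted over all genes (Benjamini-Hochberg) and a threshold of 0.05. Log2 fold changes carry the SE of the fit. With no reads in a group, a fold is a bound against 3 reads over that group. Likeness is Pearson r of log2 CPM (prior count 2) over 18 libraries, among named genes with a mean of at least 1 CPM. Promoters came from RefSeq (all 10 genes matched) and coding sequences from GENCODE M21, aligned with Biopython. The fit was tested on simulated data.

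All 10 genes are named. Of 12 context lists (183 entries), up to 3 called genes per direction were named, with the most abundant marker of a list, the 3 genes most like each of the 10, and *Hoxb13*, *Xist* and *Cldn2* as checks. *Il22*, *Il22ra1*, *Stat3*, *Socs3*, *Epcam*, *Prss1*, *Ins2*, *Cpa1*, *Lyz2*, *Mptx2*, *Xbp1*, *Vil1*, *Krt19*, *Cldn7*, *Tjp3*, *Cdh1* and the genes of the antimicrobial list lower in KO controls were named outside that rule, after their values were seen. The 10 genes and the lists were chosen with earlier results of these data known. Alternatives were other scaling (RLE, upper quartile), other filters, DESeq2 1.42.0, a fit of only the groups compared, an adjusted p of 0.1, covariates for *Xist* or *Hoxb13* above 10 CPM, leaving out each library, and the replicate number as a block.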

Additional observations from a re-analysis of the deposited data

How the results depend on the processing

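Of 2426 log2 fold changes of the 10 genes refitted under the alternatives, 2333 moved by less than the SD between replicates (log2 scale). Of the 12 reported values that passed the threshold 1 changed sign, *Mptx1* in WT recovery against control, which was 0.19 with *Hoxb13* as a covariate. Of the reported values that did not pass, 39 changed sign under at least 1 alternative (100 refitted values), *Reg3b* between control genotypes included. Counts of the 10 genes called moved most in the recovery contrasts. In WT recovery 4 were called, and the count was 2 with no filter, 2 with the *Xist* covariate, 0 with the *Hoxb13* covariate and 2 in a fit of only the groups compared, with 2 to 5 when a library was left out. In KO recovery 5 were called, and the count was 2 with no filter, 2 with the *Xist* covariate and 0 with the *Hoxb13* covariate, with 2 to 6 when a library was left out. It was 2 without any single KO control or without KO recovery replicate 2. Higher counts were 6 in the groups compared only, and 7 with DESeq2 or at an adjusted p of 0.1. The count was also 7 with WT control replicate 2 and WT AOM-DSS replicate 3 both omitted. In WT AOM-DSS 3 were called, and the count was 1 with no filter, 1 with the *Hoxb13* covariate, 0 in the groups compared only and 0 when WT control replicate 2 and WT AOM-DSS replicate 3 were both omitted, an alternative added after the data had been seen. Leaving out a library gave 0 to 3 (0 without WT AOM-DSS replicate 3, and 1 without WT control replicate 1 or 2). In KO AOM-DSS none was called, against 2 in the groups compared only (*Reg4* and *Mptx1*) and 0 to 2 when 1 library was left out. DESeq2 called 3 there, as did the fit with both libraries omitted, and in each these were *Ang4*, *Itln1* and *Lyz1*. Between genotypes none was called, against 2 in controls and 1 in recovery with DESeq2, and 1 in recovery with both libraries omitted. The causes were not tested.

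With the replicate number as a block, 0 of the 10 were called between genotypes in controls, as without it. Deviations of same-numbered controls from their group means correlated at 0.16, 0.00 and 0.08. The WT mean includes WT control replicate 2, which differed most from its group. These values therefore cannot show whether same-numbered samples share more than a number. *Reg3a* and *Reg3d* rest on at most 143 reads per library, and depth limits what can be said of them.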
